A study of Mus musculus with 15 samples.

Results

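The comparison described here is that of primary mouse kidney proximal tubule cells lacking Diet1 with wild-type (WT) cells, both from male mice, over every autosomal gene with enough counts to be tested. By that rule 13316 genes were members, of 22861 autosomal genes among the 24421 genes in the count table. Diet1 is the older name of a gene, now Malrd1, whose protein, found in intestine and kidney, is known to influence how much bile acid mice make and excrete. All mice were of the C57BL/6 strain. The WT group had 4 libraries and the knockout (KO) group, of genotype Diet1 KO, had 3. For each group the cells of 3 to 4 mice were mixed, grown through 1 passage and divided into 4 technical replicates, of which 3 are analysed here for KO. Each side of the comparison is therefore 1 pool of cells. The p-values measure only the spread between libraries of a pool, and differences between mice or between cultures cannot be told apart from genotype. The matching female pools (4 WT and 4 KO libraries) served to test whether the male difference was also found elsewhere. Neither the age of the mice nor the way Diet1 was inactivated is given in the sources used here. The targeted gene, Malrd1, was not analysed here and gives no check of the KO label.

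Proximal tubule cells form the first part of the nephron behind the glomerulus, and reabsorb most of the filtered sodium, glucose, amino acids and protein through a brush border with dense endocytosis. In culture such cells are known to lose many of these functions, to spread, to divide and to make matrix, keratins and injury proteins. Few transcripts of the differentiated tubule were abundant here. Of 48 autosomal markers of the differentiated proximal tubule, 27 had enough counts to be tested and 5 (Slc22a12, Slc22a2, Slc22a6, Slc34a3 and Slc6a20b) had no count in any male library. Their summed level was 0.03999 to 0.0429% of counts in the WT libraries and 0.0388 to 0.0405% in the KO libraries, so that the labelled cell type rested on few of its defining transcripts. Of 7 listed erythroid genes the 4 autosomal ones, the globins Hba-a1, Hba-a2, Hbb-bs and Hbb-bt, had no count in any male library. These are near-identical pairs, and how shared reads were counted is not given in the sources used here. Their zeros therefore cannot show that erythroid RNA was absent. The 8 intercalated cell markers together had at most 0.00007798% of counts. Male library totals ran from 17981749 to 30896637 counts. Levels are given as CPM, the usual count per library size with TMM scaling. Values after ± are SDs over libraries for CPM and standard errors for log2 fold changes, and a gene was called at an edgeR adjusted p below 0.05 over all 13912 genes tested.

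Of the 13316 autosomal genes, 2714 or 20.4% were called, with 1371 (10.3%) higher and 1343 (10.1%) lower in KO. The WT and KO libraries did not overlap for 3712 genes (27.9%). The 2 directions were nearly equal in number but not in size. The median fold of the genes called higher was 1.14 and that of the genes called lower 1.26. Of the former, 915 (66.7%) differed by less than 1.2-fold and 29 by 2-fold or more. Of the latter, 534 (39.8%) differed by less than 1.2-fold and 106 by 2-fold or more. In the plot of all members against abundance, the decreases reach further from 0 than the increases at low and middle levels.

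**Figure D1:**
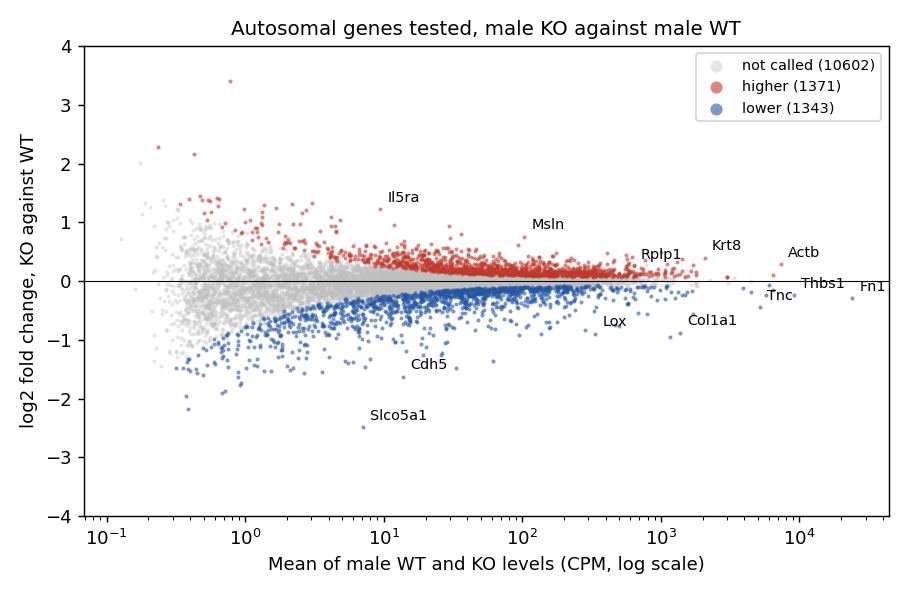
Log2 fold change of male KO against male WT (vertical axis) against the mean level in CPM (horizontal axis, log scale), 1 point for each of the 13316 autosomal genes tested. Red points were called higher (1371), blue points lower (1343) and grey points were not called; the blue side reaches further from 0 at low and middle levels.

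Calls rose with abundance while their size fell. When the genes were ordered by level and divided into 10 bins of equal size, the lowest bin (median 0.621 CPM) had 6.61% of genes called with a median fold of 2.26. In the highest bin (median 257 CPM), 40.8% were called with a median fold of 1.11. Direction shifted as well. Genes called lower outnumbered those called higher in the 3 lowest bins, by 63 to 25, 161 to 45 and 168 to 68, whereas in the highest bin 369 were higher and 175 lower. Transcript length moved with the direction too: in the bin of 10 with the shortest exons 10.6% of genes were higher and 4.2% lower, and in the bin with the longest 7.13% and 14.2%. Median log2 fold changes of these bins were 0.026 and -0.012. The part of length in the results below was not tested. By chromosome the called share lay between 17.5% and 24.4%, on either side of the 20.4% over all members.

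**Figure D2:**
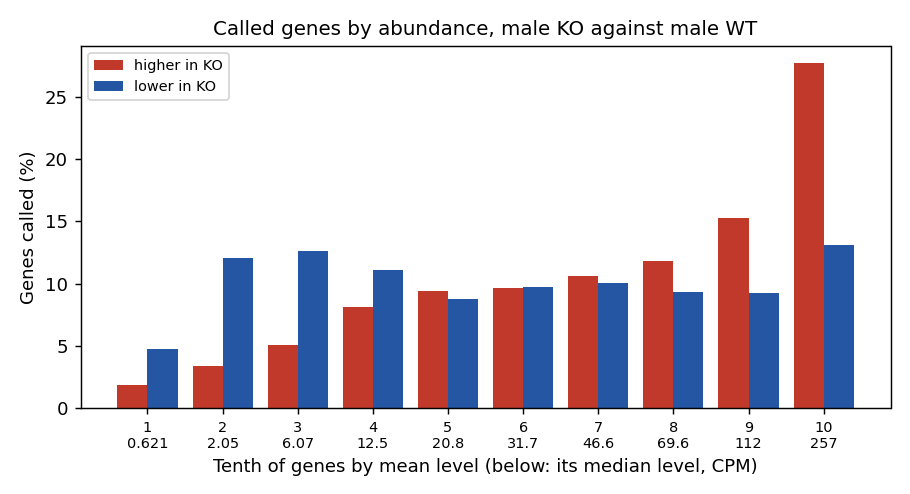
Percentage of autosomal genes called higher (red) and lower (blue) in male KO (vertical axis) in each of 10 equal bins of genes by mean level (horizontal axis, with the bin's median CPM beneath). The lower calls outnumber the higher ones in bins 1 to 4 and, by 1 gene, in bin 6, and the higher calls outnumber the lower ones in the top bin, at 27.7% against 13.1%.

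The most abundant transcripts changed by small amounts that were larger than the spread between libraries. Fn1 codes for fibronectin, a matrix glycoprotein that binds integrins (GRCm38 chromosome 1, 71585520 to 71653200), and was at 25859.95, 25334, 26208 and 27795 CPM in the WT libraries and 21617, 21406 and 21586 CPM in the KO libraries. All 3 KO libraries lay below all 4 WT libraries (log2 fold change -0.29 ± 0.030, edgeR adjusted p = 2.74e-08). The difference in Fn1 means, 26299 against 21536 CPM, is the largest of the 13316 genes on this scale. Actb, the cytoplasmic beta actin (chromosome 5, 142903115 to 142906754), went the other way, at 6564, 6423, 6717 and 6644 CPM in the WT libraries and 7849, 8029 and 8264 CPM in the KO libraries (log2 fold change 0.29 ± 0.025, edgeR adjusted p = 6.79e-11), again without overlap. Thrombospondin 1, encoded by Thbs1 (chromosome 2, 118111876 to 118127133), a matricellular protein that binds TGF beta complexes, was at 9629, 10112, 9695 and 9963 CPM in the WT libraries and 8348, 8314 and 8358 CPM in the KO libraries (log2 fold change -0.24 ± 0.027, edgeR adjusted p = 2.51e-08). Tenascin C, encoded by Tnc (chromosome 4, 63959785 to 64047015), another matricellular protein, fell further, from 5946 ± 266 to 4394 ± 121 CPM, a log2 fold change of -0.44 ± 0.029 (edgeR adjusted p = 2.62e-13).

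The 25 autosomal genes with the highest counts per transcript length (TPM) also held smaller differences. Higher in KO were the simple-epithelium keratins Krt8 (0.40 ± 0.026) and Krt18 (0.37 ± 0.027), the ribosomal stalk protein Rplp1 (0.25 ± 0.031), the tight junction protein Cldn4 (0.22 ± 0.025), the calcium-binding S100a11 (0.18 ± 0.032), galectin 1 or Lgals1 (0.18 ± 0.051), the elongation factor Eef1a1 (0.11 ± 0.022), the protease urokinase or Plau (0.11 ± 0.027) and the chaperone Hsp90ab1 (0.072 ± 0.024), all on the log2 scale. Lower were Spp1 or osteopontin (-0.23 ± 0.038), clusterin or Clu (-0.16 ± 0.027), the beta 1 integrin Itgb1 (-0.11 ± 0.026), the growth factor binding protein Igfbp7 (-0.31 ± 0.079), and the contractile proteins Tagln (-0.29 ± 0.053) and Acta2 (-0.23 ± 0.041). Not called were the ferritin chain Ftl1 (-0.059), Ctgf (-0.034), the elongation factor Eef2 (0.061), cathepsin D or Ctsd (-0.037) and tropomyosin 1 or Tpm1 (-0.0058). Of the 25, 20 were called, 10 higher and 10 lower. Without 1 male library the adjusted p of Hsp90ab1 ran up to 0.131, that of Igfbp7 to 0.0789 (KO 3 left out) and that of Lgals1 to 0.072 (KO 2 left out), past the threshold of 0.05. Actin, keratin and ribosomal protein genes have near-identical copies elsewhere in the genome, and the split of shared reads among them is uncertain.

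**Figure D3:**
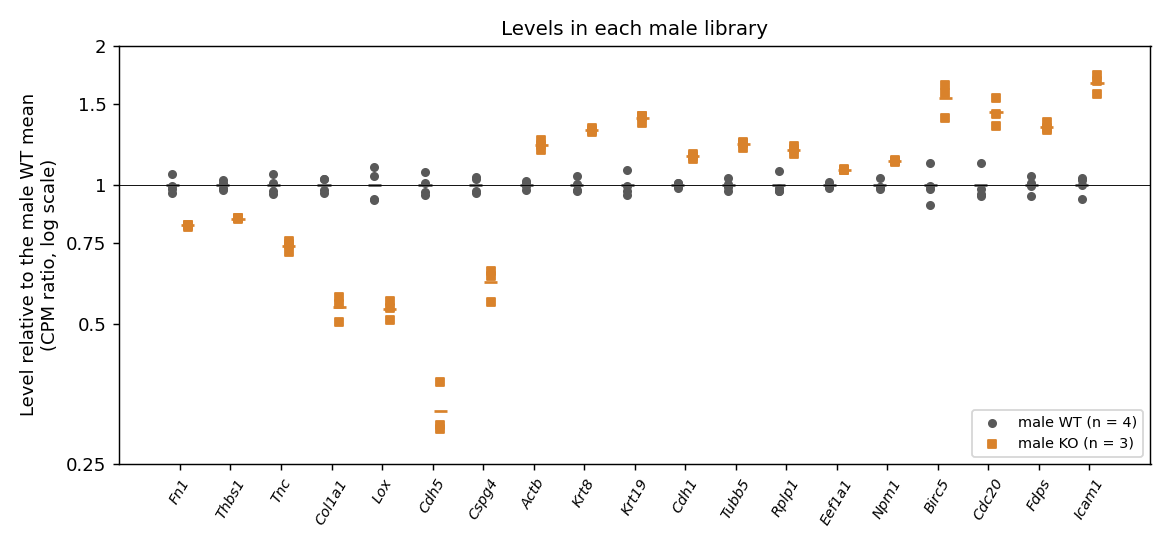
Level of 19 genes in each male library as a ratio to the male WT mean (vertical axis, log scale). Grey circles are the 4 WT libraries, orange squares the 3 KO libraries and short bars the means; for each gene plotted the WT and KO libraries do not overlap, and the KO mean is furthest below WT for Cdh5 and furthest above it for Icam1.

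The list with the largest share of members called higher was that of mitosis, the step in which kinases, condensins and kinetochore proteins segregate the chromosomes. Of 52 tested members, 48 were called higher and 0 lower, against the 10.3% and 10.1% of all autosomal genes, and the median log2 fold change was 0.37. Every one of the 52 estimates was above 0, from 0.074 to 0.62. Birc5, or survivin, part of the chromosomal passenger complex (chromosome 11, 117849251 to 117855743), was at 15.5, 13.6, 12.6 and 13.8 CPM in the WT libraries and 21.97, 19.4 and 22.8 CPM in the KO libraries (log2 fold change 0.62 ± 0.076, edgeR adjusted p = 1.26e-07). Cdc20, the activator of the anaphase-promoting complex (chromosome 4, 118432901 to 118437352), was at 33.04, 27.98, 28.3 and 28.98 CPM in the WT libraries and 39.7, 42.2 and 45.6 CPM in the KO libraries (log2 fold change 0.52 ± 0.060, edgeR adjusted p = 3.92e-08). For both genes each KO library lay above each WT library. Separase, or Espl1, rose from 11.1 ± 0.7996 to 17.01 ± 1.14 CPM, the cohesin protector Sgol2a from 11.2 ± 0.929 to 16.6 ± 0.529 CPM, and the kinesin Kif23, which acts in cytokinesis, from 32.6 ± 0.195 to 47.8 ± 1.11 CPM. Together the mitosis genes took 0.1505 ± 0.000798% of all counts in WT and 0.195 ± 0.00558% in KO.

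Promoters of mitotic genes are known for a CCAAT box together with a TTTGAA element, the core of the cell cycle homology region. RefSeq promoter windows (GRCm38.p6), matched by symbol, were at hand for 38 of the 52 mitosis genes and 10088 of the 13316 members. Within the 250 bases before the start, on either strand, CCAAT was found in 28 of the 38 (73.7%) against 40.1% of all, TTTGAA in 15 (39.5%) against 12.3%, and both in 14 (36.8%) against 4.69%. Neither motif contains the other, and a match is a description of the sequence only. The 4 stretches shown were chosen to cover both motifs, CCAAT alone and neither. Each holds the 150 bases before the start on the gene's strand, 5′ to 3′, with either motif or its reverse complement in capitals. They lie at chr4:118437344-118437493 on the minus strand (Cdc20), chr15:102296143-102296292 on the plus strand (Espl1), chr9:61946800-61946949 on the minus strand (Kif23) and chr11:117849087-117849236 on the plus strand (Birc5).
Cdc20: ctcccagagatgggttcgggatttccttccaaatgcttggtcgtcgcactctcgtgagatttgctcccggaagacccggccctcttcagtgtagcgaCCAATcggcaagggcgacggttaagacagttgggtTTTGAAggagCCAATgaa
Espl1: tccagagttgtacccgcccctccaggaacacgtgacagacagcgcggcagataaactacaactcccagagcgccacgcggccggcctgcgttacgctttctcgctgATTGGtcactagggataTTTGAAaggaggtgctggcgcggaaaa
Kif23: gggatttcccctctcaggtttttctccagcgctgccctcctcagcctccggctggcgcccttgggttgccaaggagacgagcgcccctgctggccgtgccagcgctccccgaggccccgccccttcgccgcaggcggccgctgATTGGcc
Birc5: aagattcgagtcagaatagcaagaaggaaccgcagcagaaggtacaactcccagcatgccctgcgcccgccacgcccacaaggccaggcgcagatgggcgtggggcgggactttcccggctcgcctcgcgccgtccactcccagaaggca
Cdc20 and Espl1 hold both motifs within these 150 bases, Kif23 only CCAAT on the other strand, and Birc5 neither, while their log2 fold changes were 0.52, 0.61, 0.55 and 0.62.

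Genes of DNA replication, which load and fire origins and make nucleotides, moved in the same direction by less. In that list 29 of 49 tested members were called higher and 0 lower (median 0.22), led by the thymidine kinase Tk1 (0.48 ± 0.085) and the maintenance methylation factor Uhrf1 (0.44 ± 0.052). Rrm2, a subunit of ribonucleotide reductase, rose from 60.03 ± 2.399 to 79.1 ± 2.52 CPM (edgeR adjusted p = 2.01e-09). Of 28 DNA repair genes, 9 were higher and 0 lower (median 0.20, and 4 higher without KO 3), among them Exo1 (0.38 ± 0.091) and Bard1 (0.37 ± 0.10). In nucleotide and pentose phosphate metabolism 9 of 20 tested members were called higher and 0 lower, and all 20 estimates were above 0 (median 0.11). The purine enzyme Adsl rose by 0.25 ± 0.045 and Cad, which starts pyrimidine synthesis, by 0.20 ± 0.035 on the log2 scale. For the tubulins 9 of 14 tested members were called higher and 0 lower (median 0.28). Tubb5, the most abundant of them, was at 1022, 979.6, 958 and 993 CPM in the WT libraries and 1186, 1228 and 1221 CPM in the KO libraries (log2 fold change 0.29 ± 0.026, edgeR adjusted p = 8.38e-11), so the groups did not overlap. The chromatin proteins Hmga2 (0.62 ± 0.057) and Hmgb2 (0.53 ± 0.060) and the transcription factors Mybl2 (0.65 ± 0.10) and Foxm1 (0.42 ± 0.054), which act in dividing cells, were higher as well.

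The protein synthesis machinery showed small differences, mostly in a single direction. Cytosolic ribosomal proteins form the small and large ribosomal subunits. For them 56 of 77 tested members were called higher and 0 lower, and all 77 estimates lay above 0, between 0.037 and 0.25 (median 0.14). Without KO 2 the count called higher was 42, and without WT 1 it was 69. Rplp1 was at 623, 564, 574 and 566 CPM in the WT libraries and 679, 707 and 697 CPM in the KO libraries, without overlap, and Rps12 and Rpl36 rose by 0.23 ± 0.031 and 0.20 ± 0.036 on the log2 scale. The summed share of the list was 2.09 ± 0.0984% of all counts in WT and 2.32 ± 0.0423% in KO. That share ran from 2.02 to 2.23% of counts in the WT libraries and 2.29 to 2.37% in the KO libraries, without overlap, and the exact two-sided permutation p was 0.0571, where 4 against 3 libraries allow no less than 0.0286. Ribosome biogenesis genes, which make and process ribosomal RNA in the nucleolus, had 19 of 37 members higher and 0 lower, with all 37 estimates above 0 (median 0.12, and 12 higher without KO 3). Npm1, or nucleophosmin, the most abundant of them, was at 580.4, 554, 553 and 547 CPM in the WT libraries and 631, 626 and 632 CPM in the KO libraries (log2 fold change 0.17 ± 0.027, edgeR adjusted p = 7.01e-06). Of 49 translation initiation and elongation factors 21 were higher and 2 lower (median 0.080), the lower ones being Eif4a2 (-0.15 ± 0.030) and Eif4g3 (-0.083 ± 0.027, edgeR adjusted p up to 0.139 without KO 1). Eef1a1, which delivers tRNAs to the ribosome, rose from 6142 ± 87.1 to 6635 ± 14.8 CPM. Cytosolic tRNA synthetases had 5 higher and 0 lower of 20, median 0.058 (3 higher without WT 3), led by Vars (0.23 ± 0.030). The higher ones are 25% of the tRNA synthetases. Median levels were 147 CPM for the translation factors and 172 CPM for the tRNA synthetases. In the 2 highest of the 10 bins by level, 15.3% and 27.7% of all genes were called higher. The part of abundance in these counts was not tested.

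Other machinery of RNA and protein handling was called mostly in the same direction. Importins and karyopherins, which carry cargo through the nuclear pore, had 7 higher and 0 lower of 18, median 0.078 (3 higher without KO 3), with Kpna2 at 0.23 ± 0.044 on the log2 scale. Heat shock and chaperonin genes had 11 higher and 0 lower of 22, median 0.077 (5 higher without KO 3), and Cct6a, a subunit of the actin- and tubulin-folding chaperonin, rose by 0.16 ± 0.026. Nuclear pore genes had 6 higher and 1 lower of 20, median 0.093 (2 higher without KO 3), and spliceosome genes 14 higher and 2 lower of 54, median 0.073 (8 higher without KO 3). In the latter the small ring protein Lsm4 was higher (0.22 ± 0.055) and the splicing regulator Srsf5 lower (-0.19 ± 0.038). Proteasome subunits had 4 higher and 0 lower of 45, median 0.056 (2 higher without WT 3 and 12 without WT 1). Of the 45 estimates 41 were above 0, and the 4 calls are 8.89% where 10.3% of all members were called higher. Mitochondrial ribosomal proteins had 11 higher and 0 lower of 77, median 0.052 (2 higher without KO 2), or 14.3% called, and complex I of the respiratory chain 1 higher and 0 lower of 35, median 0.034 (5 higher without WT 1). In these 3 lists the count thus moved with the library left out. Median levels were 306 CPM for the heat shock and chaperonin list, 124 CPM for importins and karyopherins and 109 CPM for the proteasome. In that range of abundance higher calls outnumbered lower ones over all genes.

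Cholesterol synthesis, the pathway that SREBP2 switches on when membrane sterol is low, had 20 of 23 tested members higher and 0 lower (median 0.26). Fdps, an enzyme of the prenyl branch point (chromosome 3, 89093588 to 89101959), was at 147, 142, 133 and 139.7 CPM in the WT libraries and 185, 193 and 187 CPM in the KO libraries (log2 fold change 0.42 ± 0.035, edgeR adjusted p = 3.00e-11), with no overlap. Lss, the lanosterol synthase, rose by 0.42 ± 0.053 on the log2 scale. Fatty acid and triglyceride synthesis had 4 higher and 0 lower of 21, median 0.045, and the sterol efflux and LXR list 1 higher and 3 lower of 11, median -0.037 (1 lower without KO 1). Called were 19% of the former and 36.4% of the latter. Over all autosomal genes 20.4% were called, 10.3% of them higher and 10.1% lower as shares of all genes. In these lists the desaturases Scd2 (0.21 ± 0.025) and Scd1 (0.15 ± 0.033) were higher, and the cholesterol exporter Abca1 lower (-0.30 ± 0.067). Fabp5, a fatty acid carrier, rose by 0.64 ± 0.090.

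Many genes of epithelial adhesion were higher. The junction and keratin list had 27 of 43 members higher and 0 lower (median 0.20), and took 1.21 ± 0.0208% of all counts in WT and 1.44 ± 0.00912% in KO. E-cadherin, encoded by Cdh1, holds epithelial cells together (chromosome 8, 106603351 to 106670246) and was at 872, 864, 886 and 889 CPM in the WT libraries and 1002, 1017 and 1025 CPM in the KO libraries (log2 fold change 0.21 ± 0.025, edgeR adjusted p = 6.73e-08), the KO libraries all being higher. Krt8 (chromosome 15, 101996698 to 102004482) was at 1873, 1743, 1734 and 1795 CPM in the WT libraries and 2331, 2380.4 and 2355 CPM in the KO libraries (log2 fold change 0.40 ± 0.026, edgeR adjusted p = 7.16e-14), and Krt19 rose from 339 ± 18.4 to 473 ± 9.47 CPM. Over the keratin family 7 of 12 tested members were called higher and 0 lower (median 0.38). Claudins, the sealing proteins of tight junctions, had 6 higher and 2 lower of 12, median 0.23, with Cldn1 (0.36 ± 0.045), Cldn3 (0.34 ± 0.039), Cldn7 (0.30 ± 0.031) and Cldn4 (0.22 ± 0.025) higher. Ezrin, or Ezr, which links the apical membrane to actin, rose by 0.26 ± 0.030, and Gprc5a and the ephrin receptor Epha2 by 0.25 ± 0.027 and 0.25 ± 0.029.

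Basement membrane genes divided by chain. Chains of the laminins that anchor epithelia through hemidesmosomes were higher, Lama3 rising by 0.40 ± 0.035 and Lamb3 by 0.32 ± 0.028 on the log2 scale. Itgb4, which pairs with the alpha 6 chain as a receptor for epithelial laminin, rose by 0.25 ± 0.028, and Itga3, whose product also binds epithelial laminin, by 0.27 ± 0.024. Lama4, found mainly in vessel walls, fell from 7.98 ± 0.645 to 3.04 ± 0.155 CPM and Lamb2 from 171 ± 2.202 to 142 ± 5.36 CPM, while Lamb1 was not called (-0.037). Of the 11 laminin genes tested 4 were higher and 3 lower, and of 22 integrin genes 6 were higher and 9 lower. The lower integrins included Itga9 (-1.03 ± 0.094), Itga4 (-0.90 ± 0.17), the fibrillar collagen receptor Itga11 (-0.57 ± 0.087) and Itgb5 (-0.26 ± 0.031).

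Interstitial matrix genes were lower in KO. Collagens had 1 of 31 tested members higher and 19 lower (median -0.25), and their share of counts was 1.11 ± 0.0259% of all counts in WT and 0.806 ± 0.0111% in KO. Col1a1, the alpha 1 chain of type I collagen (chromosome 11, 94936224 to 94953042), was at 1825, 1726, 1702 and 1829 CPM in the WT libraries and 982, 1012 and 896 CPM in the KO libraries (log2 fold change -0.88 ± 0.045, edgeR adjusted p = 1.66e-10). No library of either group came near the other group. Its partner chain Col1a2 fell from 1540.2 ± 54.8 to 798 ± 36.2 CPM, and the short-chain collagen Col8a1 from 88.2 ± 2.32 to 34.5 ± 0.866 CPM, a log2 fold change of -1.35 ± 0.044 (edgeR adjusted p = 7.22e-22). Col4a2, a basement membrane chain at 919.8 CPM in WT, fell by less (-0.25 ± 0.031), and Col11a1 was the member called higher (0.33 ± 0.081). The enzymes that hydroxylate, fold, cleave and crosslink collagen had 1 of 20 members higher and 15 lower (median -0.28). Lox, the lysyl oxidase that crosslinks collagen and elastin (chromosome 18, 52516067 to 52529867), was at 406, 408, 479 and 458 CPM in the WT libraries and 238, 246 and 224 CPM in the KO libraries (log2 fold change -0.89 ± 0.066, edgeR adjusted p = 3.13e-07). Loxl2 fell from 811 ± 30.6 to 559 ± 15.6 CPM, Loxl3 by 0.63 ± 0.077 on the log2 scale, and the collagen chaperone Serpinh1 from 1250.4 ± 35.2 to 1105 ± 7.07 CPM. Loxl4 was the member called higher (0.15 ± 0.045).

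Elastic fibre and matrix glycoprotein genes, the list that includes Fn1, Thbs1 and Tnc, had 22 of 33 members lower and 0 higher (median -0.35). They took 5.104 ± 0.124% of all counts in WT and 4.18 ± 0.0197% in KO. The elastic microfibril gene Mfap5 (-1.55 ± 0.16), thrombospondin 2 or Thbs2 (-1.49 ± 0.072) and periostin or Postn (-1.26 ± 0.073) had the largest decreases among members at 5 CPM or more. Ltbp3, which holds latent TGF beta in the matrix, and Gpc1, a heparan sulfate proteoglycan, fell by 0.23 ± 0.030 and 0.26 ± 0.034 on the log2 scale. Among the metalloproteases, ADAM proteases and their inhibitors 3 of 47 tested members were called higher and 18 lower, or 5 higher without WT 3 (median -0.29). Mmp17 (-0.79 ± 0.10), Adamts16 (-0.79 ± 0.049) and Adamts12 (-0.79 ± 0.059) were lower, and Adam8 (0.56 ± 0.060), Adamts1 (0.12 ± 0.032) and the inhibitor Timp2 (0.12 ± 0.028) higher. Serpins had 3 higher and 8 lower of 25, median -0.12 (1 higher without WT 3).

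Markers of fibroblasts and of smooth muscle and pericytes moved with these matrix genes, while leukocyte markers, given below, went the other way. Of 11 tested fibroblast markers 8 were lower and 0 higher (median -0.71), and the 14 in the table summed to 0.343 to 0.367% of counts in the WT libraries and 0.179 to 0.198% in the KO libraries, none being at 0. Col1a1, Col1a2, Postn and Mfap5 belong to both this list and the matrix lists, so these counts are not independent of each other. Smooth muscle and pericyte markers had 10 of 11 lower (median -0.29) and summed to 0.362 to 0.399% of counts in the WT libraries and 0.304 to 0.312% in the KO libraries, with Ren1 at 0. Cspg4, or NG2, a pericyte proteoglycan, was at 192, 177, 179 and 190.1 CPM in the WT libraries and 118, 121 and 103 CPM in the KO libraries (log2 fold change -0.70 ± 0.041, edgeR adjusted p = 4.08e-14), without overlap. The receptor Pdgfrb fell from 99.3 ± 1.67 to 62.9 ± 2.65 CPM and the smooth muscle myosin Myh11 from 36.6 ± 1.42 to 15.7 ± 0.503 CPM, and the light chain kinase Mylk by 0.84 ± 0.045 on the log2 scale. In the wider list of actin and contractile genes 10 of 32 tested members were called higher and 9 lower, the higher ones led by Actb, Acta1 (0.28 ± 0.041) and Cnn2 (0.23 ± 0.030). Acta1 and other actins share most of their coding sequence, which leaves the call on Acta1 uncertain. The part of fibroblasts, pericytes or smooth muscle cells in the matrix result was not tested. In bulk RNA, fewer cells of a type and less RNA per cell cannot be told apart.

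Endothelial markers had the lowest median of the lists. All 21 tested estimates were below 0, 19 were called lower and 0 higher, and the median was -1.07. Their sum was small, at 0.0146 to 0.0161% of counts in the WT libraries and 0.00715 to 0.00781% in the KO libraries, with none of the 22 at 0, and the ranges did not overlap. In the female pools the same sum was 0.00648 to 0.00707% in WT and 0.00677 to 0.00867% in KO, so the male WT libraries held the highest share of the 4 groups and the male KO libraries were near the female ones. Cdh5, the cadherin of endothelial junctions (chromosome 8, 104101625 to 104144511), was at 22.1, 19.7, 20.8 and 19.9 CPM in the WT libraries and 7.75, 6.13 and 6.24 CPM in the KO libraries (log2 fold change -1.62 ± 0.10, edgeR adjusted p = 2.53e-14). Emcn, or endomucin, was lower too (-1.07 ± 0.12). Eng, a TGF beta co-receptor, fell from 38.2 ± 3.19 to 18.7 ± 1.74 CPM, and Esm1, a secreted proteoglycan, from 20.02 ± 1.93 to 8.88 ± 0.132 CPM. The vascular receptor Adgrl4 (-1.37 ± 0.14), angiopoietin 2 or Angpt2 (-1.32 ± 0.12) and Tnfsf15, a cytokine that vessel cells secrete (-1.26 ± 0.071), were lower as well. In the Notch list the same held for Heyl (-0.92 ± 0.075), Notch4 (-0.80 ± 0.12) and Dll4 (-0.45 ± 0.074), 5 of 22 members being lower and 1 higher. Jag1, the abundant ligand in these cells, was not called (0.011 ± 0.028). The part of endothelial cells in the Notch and TGF beta results was not tested.

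Signalling families leaned lower. In TGF beta and BMP signalling 4 of 50 tested members were called higher and 18 lower (median -0.12). Over all autosomal genes 10.3% were called higher and 10.1% lower. By role, the co-receptor Eng and the receptor Acvrl1 (-0.65 ± 0.11) and the binding protein Fstl1 (from 385 ± 5.87 to 269 ± 4.19 CPM) were lower, and the ligand Bmp8b (0.85 ± 0.13), the BMP antagonist Grem1 (0.63 ± 0.074) and the activin antagonist Fst (0.27 ± 0.067) were higher. Pmepa1, a target that feeds back on the pathway, fell by 0.20 ± 0.026 on the log2 scale. Wnt pathway genes had 4 higher and 15 lower of 52, median -0.12. The ligand Wnt10a (0.68 ± 0.10) and the receptor Fzd5 (0.22 ± 0.045) were higher, and the antagonist Dkk2 (-0.70 ± 0.049), the target and inhibitor Axin2 (-0.63 ± 0.11) and the ligand carrier Wls (-0.23 ± 0.026) lower, with the effector Ctnnb1 not called (0.012 ± 0.024). Receptor tyrosine kinases and growth factors had 6 higher and 18 lower of 46, median -0.12. The collagen receptor Ddr2 (-0.99 ± 0.096) and the IGF binding proteins Igfbp3 (-0.88 ± 0.079) and Igfbp5 (-0.78 ± 0.11) were lower, whereas the EGF receptor ligand Tgfa was higher (0.24 ± 0.048). Called in either direction were 44% of the TGF beta and BMP list, 36.5% of the Wnt list and 52.2% of this last list. The share over all genes was 20.4%.

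Axon guidance families had 5 higher and 17 lower of 61, median -0.12 (median -0.075 without KO 2). Slit3 (-1.15 ± 0.14) and the semaphorin receptor Plxna4 (-0.76 ± 0.12) were lower, and Sema6a, at 146 CPM in WT, was higher (0.47 ± 0.053). Genes of G proteins, their regulators, adenylyl cyclases and phosphodiesterases had 6 higher and 21 lower of 64, median -0.092 (2 higher without KO 2, median -0.16 without KO 2), and ion channels 5 higher and 16 lower of 72, median -0.18. Pde2a (-0.78 ± 0.13), Pde3a (-0.52 ± 0.090), the potassium channel subunit Kcnmb1 (-0.93 ± 0.11) and the calcium channels Cacna1g (-0.72 ± 0.037) and Cacna1c (-0.64 ± 0.14) were lower, while the background potassium channel Kcnk1 was higher (0.28 ± 0.034). Cadherins and protocadherins had 2 higher and 12 lower of 57, median -0.20 (6 lower without WT 4), and glycosyltransferases 4 higher and 23 lower of 82, median -0.092. The channels and cadherins hold many transcripts at low levels, with median levels of 2.21 and 2.48 CPM. In that range of abundance lower calls outnumbered higher ones over all genes. Median levels were 11.1 CPM for the G protein list, 15.3 CPM for glycosyltransferases and 24.1 CPM for guidance. Over all genes the bin at a median of 12.5 CPM had 108 higher and 148 lower. Those at 20.8 and 31.7 CPM had 125 and 117, and 129 and 130. The part of abundance in these counts was not tested.

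Inflammatory genes mostly rose. For cytokines, chemokines and NF-kB genes 19 of 37 tested members were called higher and 5 lower (median 0.19). Icam1, an adhesion molecule that leukocytes bind (chromosome 9, 21015985 to 21028817), was at 23.2, 22.4, 22.9 and 20.9 CPM in the WT libraries and 37.6, 35.2 and 38.8 CPM in the KO libraries (log2 fold change 0.73 ± 0.061, edgeR adjusted p = 2.98e-11), without overlap. Lower in this list were the chemokine Cxcl12, from 27.2 ± 1.17 to 15.6 ± 0.158 CPM, the cytokine Il11, from 199 ± 10.6 to 114 ± 6.23 CPM, and the complement gene C3, from 52.9 ± 5.89 to 36.8 ± 2.46 CPM. Interferon and antigen presentation genes had 12 higher and 0 lower of 40, median 0.20 (7 higher without KO 2), with the sensor Ifih1 (0.24 ± 0.061) and the PARP enzyme Parp14 (0.27 ± 0.047) higher and B2m, the light chain of class I molecules, not called (0.086 ± 0.033). Leukocyte markers moved with them: 7 of 14 were higher and 0 lower (median 0.70, and 4 higher without KO 1), at a summed 0.00325 to 0.003699% of counts in the WT libraries and 0.00478 to 0.00491% in the KO libraries, with Ms4a1 at 0. The part of leukocytes in the inflammatory result was not tested. Msln, or mesothelin, a surface protein of mesothelial cells, was at 71.4, 77.8, 76.9 and 81.4 CPM in the WT libraries and 125, 133 and 130.1 CPM in the KO libraries (log2 fold change 0.76 ± 0.042, edgeR adjusted p = 1.40e-15), so each KO library was higher.

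Among organelle and metabolic pathways, those of the endoplasmic reticulum leaned lower. ER chaperone and unfolded protein response genes had 1 higher and 8 lower of 24, median -0.086, 22 of the estimates being below 0. Calreticulin, or Calr, fell from 1133 ± 22.8 to 1045 ± 3.43 CPM, and the COPII coat gene Sec24d by 0.20 ± 0.042 on the log2 scale. Ckap4, an ER membrane protein, fell from 218 ± 9.66 to 182 ± 3.76 CPM. Lysosomal genes had 0 higher and 8 lower of 31, median -0.045 (5 lower without KO 3), led by the hexosaminidase Hexa (-0.36 ± 0.053) and the protease Ctsl (-0.18 ± 0.028), and the vacuolar ATPase 1 higher and 3 lower of 16, median -0.044 (3 higher without WT 1, 1 lower without KO 1). Fatty acid oxidation, the main fuel of the proximal tubule in the kidney, had 0 higher and 4 lower of 24, median -0.044, with Cpt1a, the entry step into mitochondria, lower (-0.31 ± 0.046). Peroxins had 0 higher and 1 lower of 16, median -0.039, the TCA cycle 3 higher and 0 lower of 26, median 0.025 (1 higher without WT 4 and 5 without WT 1, 2 lower without WT 3), complexes III and IV 3 higher and 0 lower of 20, median 0.054 (1 higher without WT 3 and 5 without WT 1), and ATP synthase 4 higher and 0 lower of 16, median 0.072 (0 higher without KO 2 and 7 without WT 1). Glycolysis had 6 higher and 2 lower of 19, median 0.039, the glucose carrier Slc2a1 rising from 226 ± 5.87 to 279 ± 7.58 CPM. NRF2 and antioxidant genes had 5 higher and 3 lower of 29, median 0.0048 (1 lower without WT 2), and ATF4 targets 4 higher and 2 lower of 16, median 0.068 (2 higher without WT 4). Most of these medians lay within 0.1 of 0, and their called shares were on both sides of the 20.4% of all members.

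Transcription factor families differed in how often their members were called. The zinc finger genes named Zfp, the largest family examined, had 4 higher and 10 lower of 309, median -0.019 (2 higher without KO 1, 6 lower without KO 2 and 17 without WT 1), or 4.53% called against 20.4% of all genes. Hox genes, which record position along the body axis, had 0 higher and 5 lower of 32, median -0.096 (2 lower without KO 2), 31 of 32 estimates being below 0, with Hoxa5 lower (-0.34 ± 0.082) and the abundant Hoxb9 not called (-0.0048). Nuclear receptors and coregulators had 0 higher and 9 lower of 38, median -0.090 (4 lower without KO 1), including the clock repressor Nr1d1 (-0.34 ± 0.078). For nephron identity factors the counts were 3 higher and 2 lower of 24, median -0.050 (1 higher without KO 3, 0 lower without KO 3), with Tfcp2l1, a distal nephron factor, rising from 113 ± 7.43 to 149.96 ± 4.99 CPM. Immediate early genes had 12 higher and 4 lower of 34, median 0.058 (7 higher without KO 2, 2 lower without KO 3), with Klf6 higher (0.28 ± 0.036) and Egr2 lower (-0.80 ± 0.072). Sox9, a factor of injured and regenerating tubule, rose by 0.25 ± 0.040.

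Genes for functions of the differentiated tubule were called in both directions. Of the 27 tested proximal tubule markers 2 were higher and 5 lower (median -0.19, and 0 higher without KO 3, median -0.087 without WT 1), or 25.9% called where 20.4% of all genes were. The brush border enzymes Ggt1 (-0.37 ± 0.063) and Ace (-0.46 ± 0.11) and the endocytic receptor Lrp2, or megalin (-0.44 ± 0.076), were lower. Their summed share, given above, had an exact two-sided permutation p of 0.143, with 0.0286 the smallest possible. Apical endocytosis genes had 6 higher and 4 lower of 23, median 0.019, the megalin adaptor Dab2 being lower (-0.37 ± 0.046). Carriers for organic ions had 1 higher and 4 lower of 14, median -0.15 (median -0.088 without KO 3), those for amino acids 3 higher and 3 lower of 29, median -0.0090 (1 higher without KO 3, 5 lower without WT 3), for sugars and monocarboxylates 4 higher and 5 lower of 26, median -0.35 (3 lower without KO 3), and for sodium, protons, chloride and bicarbonate 3 higher and 5 lower of 39, median -0.066 (1 higher without KO 3, 3 lower without WT 2 and 8 without WT 1). Called were 20.7% of the amino acid carriers and 20.5% of those for sodium, protons, chloride and bicarbonate, near the 20.4% of all genes. The called share was 35.7% for organic ions, 34.6% for sugars and monocarboxylates and 43.5% for apical endocytosis. The sugar and monocarboxylate carriers had a median level of 2.68 CPM, where lower calls outnumbered higher ones over all genes. Their summed share went the other way from their median, at 0.0440 to 0.0460% of counts in the WT libraries and 0.0477 to 0.0494% in the KO libraries. Bile acid genes had 0 higher and 3 lower of 13, median -0.10 (median -0.17 without KO 1, median 0.0031 without WT 2). That is 23.1% called, where 20.4% of all genes were. Their median level was 1.31 CPM, and their summed share was 0.0418 ± 0.00436% of counts in WT and 0.0417 ± 0.0025% in KO. The lower members included the bile acid receptor Gpbar1 (-0.55 ± 0.14), the vitamin D receptor Vdr (-0.25 ± 0.070, edgeR adjusted p = 0.0802 without KO 1) and the FGF co-receptor Kl (-0.72 ± 0.15), while the exporter Abcc4 was not called (0.028 ± 0.093).

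**Figure D4:**
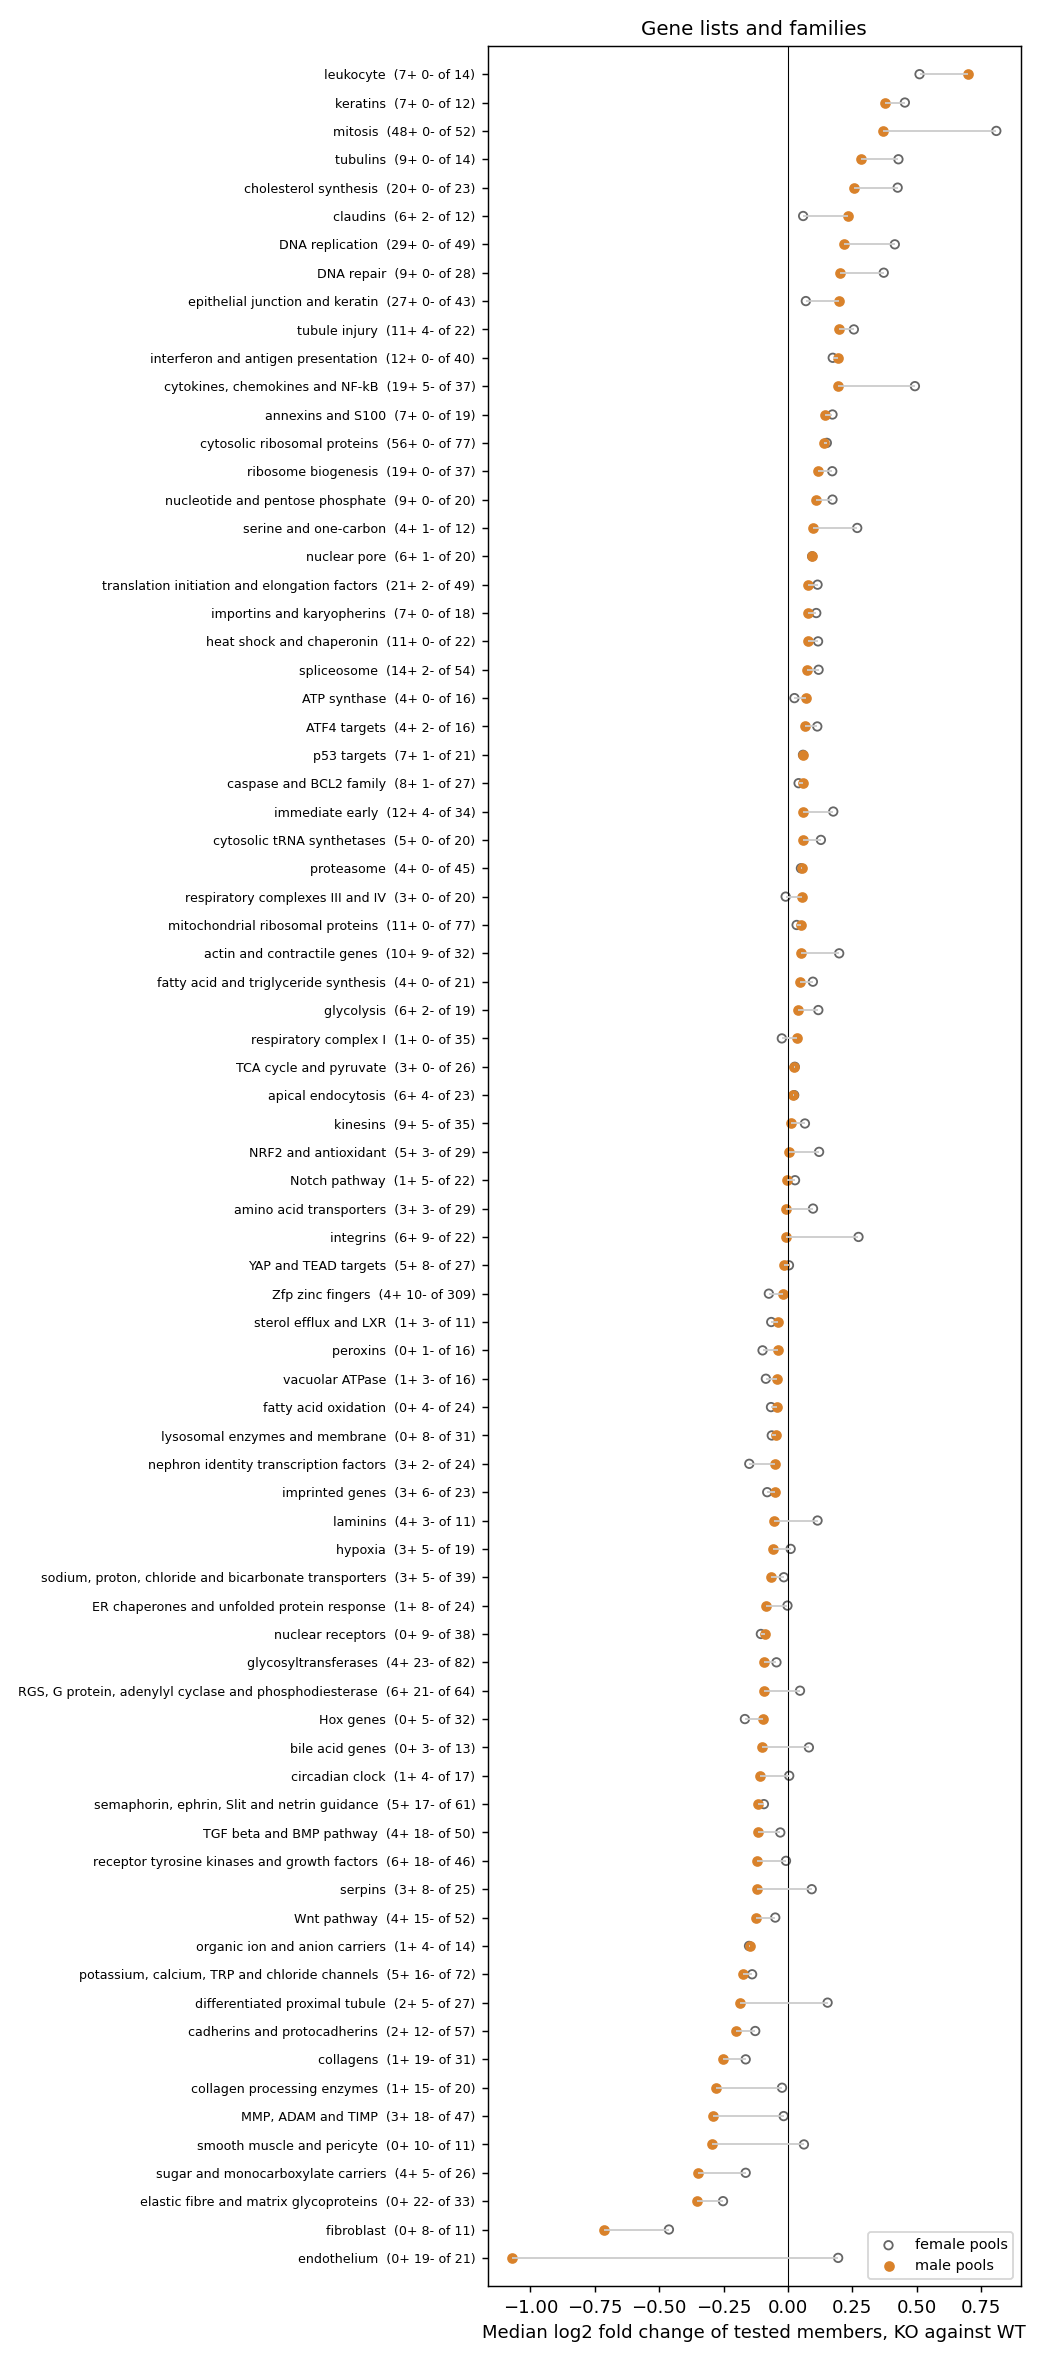
Median log2 fold change of the tested members (horizontal axis) of each gene list or family with at least 10 tested members (vertical axis), with the male counts higher and lower in brackets. Orange points are the male pools and open circles the female pools, joined by a grey line; endothelium is lowest in male at -1.07 and lies above 0 in female, and mitosis is higher in both.

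The female pools, which share no library with the male ones, were compared in the same model. In them 39.4% of the 13316 genes were called. Of the genes called higher in male KO, 1009 were also called higher in female KO and 41 lower, and of those called lower 655 were lower and 169 higher. The shared increases were 73.6% of the male and 36% of the female increases, and the shared decreases 48.8% and 26.8%. The difference between the male and female effects was called for 15.7% of the genes. Lists differed in this respect. None of the 77 ribosomal protein genes had a called difference, and 52 were higher in both. For mitosis 38 of 52 and for replication 17 of 49 had a smaller male effect, the female medians being 0.81 and 0.41. Among epithelial junction genes 18 of 43 had a larger male effect and 3 a smaller one (female median 0.070).

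Collagen processing, endothelial and pericyte genes set the male pools apart. Of the 20 processing enzymes 15 had a more negative male effect, and the female counts were 4 higher and 2 lower. Of 21 endothelial markers 16 had a more negative male effect, and in female KO 5 were higher and 1 lower. Of 11 smooth muscle and pericyte markers 9 had a more negative male effect. In female KO 3 of them were called higher and 4 lower, and these 4 were lower in male KO too. For Cdh5 the female log2 fold change was 0.052 ± 0.10 (edgeR adjusted p = 2.81e-10 for the difference). Esm1 (0.56 ± 0.10 in female), Itga4 (0.71 ± 0.19), Emcn (0.42 ± 0.12), Eng (0.34 ± 0.084) and the neuronal adhesion molecule Nrcam (-0.40 in male, 0.98 ± 0.12 in female) had the other most negative differences among genes called in male at 5 CPM or more. The most positive were those of the microtubule protein Map2 (-0.46 in male, -1.73 ± 0.073 in female), Kl (-1.93 ± 0.14 in female), Smtnl2 (-0.34 and -1.19 ± 0.085), Tmem178 (-0.30 and -1.13 ± 0.068), the secreted serpin Serpinf1 (-0.97 and -1.76 ± 0.066) and the phosphate carrier Slc34a2 (-0.54 and -1.32 ± 0.17, the male call ending without WT 2 or 3 or KO 2 or 3, at an edgeR adjusted p of up to 0.166), all of which fell in male by less than in female. Fn1 was -0.29 in male and 0.074 ± 0.028 in female, and Col4a2 -0.25 and 0.49 ± 0.029, and both differences were called. Sex and pool cannot be told apart, since each group is 1 pool.

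**Figure D5:**
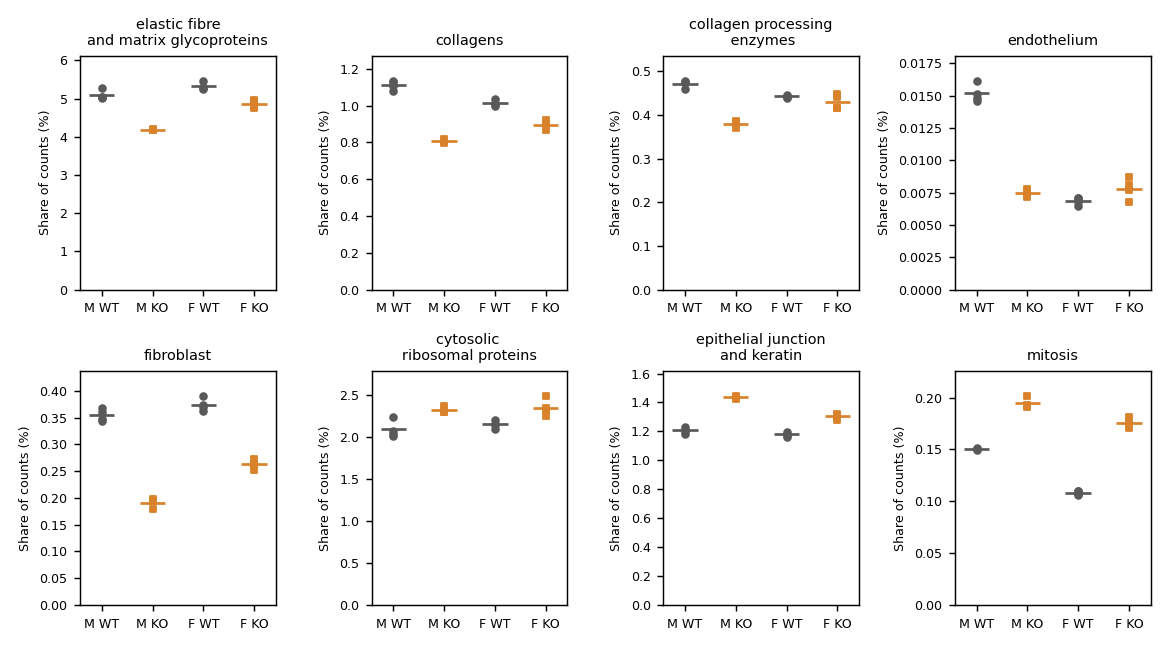
Share of each library's counts (vertical axes, percent, from 0) held by 8 gene lists in the male (M) and female (F) WT and KO libraries (horizontal axes). Each point is 1 library and bars are group means; matrix, collagen, collagen processing, endothelial and fibroblast shares are lower in male KO, and the ribosomal, junction and mitosis shares are higher.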

How the data were processed

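The authors deposited raw read counts per gene symbol, one column per library, which were used as deposited. Per the submitters' processing notes they were made with STAR 2.6.1 and featureCounts on mm10, and edgeR 3.26.8 and limma 3.40.6 are named there too. Which annotation and strand setting featureCounts was run with is not given in the sources used here, so overlapping and antisense genes may share reads.

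For the present comparison edgeR 4.0.16 was run in R 4.3.3. Genes were kept by filterByExpr over the 4 groups (minimum count 10, minimum total 15), libraries were scaled by TMM, and all 15 libraries entered 1 robust quasi-likelihood fit with 1 coefficient for each group, which share 1 estimate of the spread (common biological coefficient of variation 3.59%). The contrasts were male KO minus WT, female KO minus WT, and their difference. P-values were adjusted by Benjamini-Hochberg over all 13912 genes tested, and only autosomal genes are reported. A standard error is the log2 fold change divided by the square root of its F statistic. TPM used exon lengths and positions used genes of GENCODE M21 (GRCm38), matched by symbol for 23310 genes and by older symbol for 648. No set test was made: lists and families are described by counts of calls and medians. In simulated counts for male KO against WT over 13912 genes, 21.5% of genes changed 1.1-fold, 57.5% of those changed 1.2-fold and 84.5% of those changed 1.5-fold were called, and 6.03% of calls were unchanged genes. Only 200 genes were changed at each fold, a smaller share than the 20.4% called in the data. The simulation held only the spread between libraries, so these values do not cover differences between pools.

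The genes, lists, families and tests were chosen with earlier results of these data known, and the symbol patterns of 4 families (nuclear pore, tubulins, translation factors, G proteins) were corrected after their members were seen. Genes were named by rule: the 15 largest folds each way without overlap, the 25 highest by TPM, up to 3 called members each way and the most abundant member of each list, the 8 smallest p each way among folds under 1.2, and the 6 largest differences from female pools each way, at 5 CPM or more except for the most abundant. Predicted and date-like names were passed over. Some genes that met the rule are not named.

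Results were recomputed with upper-quartile scaling, with the size factors of DESeq2 or by library total alone, with DESeq2 1.42.0 and limma-voom (limma 3.58.1), against a null of 1.2-fold, with no filter or 5 CPM in at least 3 male libraries, on the male libraries alone, with the replicate number as a block, and without each library in turn. Malrd1 and mitochondrially encoded genes were not analysed here.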

Additional observations from a re-analysis of the deposited data

Results flagged for a closer look

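A test of the difference between the male and female KO effects set apart 127 of the 199 genes named here (interaction in the edgeR model, adjusted p below 0.05), where 15.7% of all autosomal genes had such a difference. The named genes were chosen in part for this difference, so their share is no result. Each value is the male minus the female log2 fold change, so a negative value is a lower effect in the male pools. At -1 or below were Esm1 -1.74, Cdh5 -1.68, Itga4 -1.62, Emcn -1.50, Nrcam -1.38, Eng -1.38, Cxcl12 -1.36, Igfbp5 -1.24, Slit3 -1.23, Adgrl4 -1.21, Tnfsf15 -1.18, Vcam1 -1.14, Mmp17 -1.13, Lama4 -1.11, Acta1 -1.09, Angpt2 -1.08 and Notch4 -1.06. From -1 to -0.5 came Ddr2 -0.99, Heyl -0.96, Pde2a -0.95, Itga9 -0.91, Itga11 -0.87, Myh11 -0.87, Cacna1c -0.86, Loxl3 -0.86, Pde3a -0.84, Il11 -0.80, Plxna4 -0.79, Kcnmb1 -0.78, Col4a2 -0.74, Exo1 -0.73, Pdgfrb -0.73, Ace -0.71, Acvrl1 -0.70, Loxl2 -0.70, Nr1d1 -0.70, Lox -0.67, Hmga2 -0.61, Egr2 -0.60, Rrm2 -0.59, Vim -0.57, Kif18b -0.56, Loxl4 -0.56, Cspg4 -0.56, Plagl1 -0.56, Espl1 -0.51 and Col8a1 -0.51. From -0.5 to -0.25 came Krt20 -0.50, Foxm1 -0.50, Col1a2 -0.48, Grem1 -0.48, Ctgf -0.45, Dkk2 -0.43, Cdc20 -0.42, Col1a1 -0.42, Kif21b -0.41, Vegfa -0.39, Acta2 -0.38, Lama3 -0.37, Aldh1l2 -0.37, Icam1 -0.37, Tnc -0.36, Kif23 -0.36, Fn1 -0.36, Ckap4 -0.36, Scd1 -0.36, Sec24d -0.36, Tagln -0.36, Gadd45a -0.35, Uhrf1 -0.33, Vdr -0.33, Nt5e -0.31, Msln -0.31, S100a6 -0.30, Actb -0.30, Adamts12 -0.30, P4ha1 -0.30, Lgals1 -0.28, Gpc1 -0.26, Sema6a -0.26 and Lss -0.25. Nearer to 0 on the negative side were Tubb5 -0.23, Grb10 -0.23, Fdps -0.23, Mylk -0.21, Jag1 -0.21, Fstl1 -0.21, Cnn2 -0.20, B2m -0.18, Bcl2l2 -0.18, Itgb5 -0.18, S100a10 -0.17, Epha2 -0.17, Serpinh1 -0.16, Ctsl -0.16, Timp2 -0.13, Scd2 -0.11, Hsp90ab1 -0.11 and Itgb1 -0.10. Positive differences of 0.5 or more were those of Map2 1.27, Kl 1.21, Smtnl2 0.85, Tmem178 0.83, Serpinf1 0.79, Slc34a2 0.78, Abca1 0.68, Adamts16 0.64 and Ggt1 0.58. From 0.5 down to 0.25 came Col11a1 0.49, Cacna1g 0.42, Gdf15 0.39, Fst 0.34, Cldn7 0.30, Plau 0.28 and Dab2 0.28. Nearer to 0 on the positive side were Spp1 0.25, Thbs1 0.23, Perp 0.23, Ctsd 0.23, Hoxb9 0.21, Kcnk1 0.20, Clu 0.17, Cdh1 0.16, Cldn3 0.15, Bax 0.15, Gprc5a 0.14 and Cldn4 0.097. Sex and pool cannot be told apart in these values.

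In 8 of the named genes 1 of the 4 male WT libraries lay apart from the others, by Dixon's 95% limit on the gap as a share of the range. Chance sets apart about 1 in 20 such groups. Cldn3 was highest in WT 1, at 120.5 CPM, with the nearest library at 108.1 CPM. Col4a2 was lowest in WT 2, at 869.2 CPM, with the nearest library at 934.2 CPM. Eef2 was highest in WT 1, at 3432 CPM, with the nearest library at 3289 CPM. Gadd45a was lowest in WT 2, at 81.78 CPM, with the nearest library at 88.68 CPM. Hsp90ab1 was highest in WT 1, at 3052 CPM, with the nearest library at 2913 CPM. Slc2a1 was highest in WT 2, at 235.2 CPM, with the nearest library at 224.5 CPM. Uhrf1 was lowest in WT 4, at 41.09 CPM, with the nearest library at 45.81 CPM. Vars was highest in WT 1, at 249.7 CPM, with the nearest library at 235.3 CPM. The 3 KO libraries were too few for this check.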

How the results depend on the processing

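The 2714 calls kept their direction wherever an alternative called them too. Against a fold of 1.2 in place of no change, 124 genes were higher and 314 lower, and 458 differed between male and female pools, in place of 1371, 1343 and 2097. With each of the 15 libraries left out in turn, 989 to 1518 genes were higher, 993 to 1430 lower and 1764 to 2249 differed between the pools. Fewest were called higher or lower without male KO 3 and fewest differed without male KO 1, and the most in all 3 counts came without male WT 1. The replicate block gave 1519 higher, 1456 lower and 2396 that differed. Deviations of same-numbered male WT and KO libraries from their group means correlated at 0.0385, -0.0285 and 0.072. Those of differently numbered libraries correlated at -0.0711 to 0.0339. Values so near 0 do not settle whether the numbers pair the libraries. Other scalings put 47.5 to 51% of calls on the higher side, in place of 50.5%. DESeq2 called 1222 higher and 1176 lower, limma-voom 1375 higher and 1287 lower, and a fit of the male libraries alone 1213 higher and 1245 lower. Without a filter 1329 higher and 1282 lower were called, and with at least 5 CPM in at least 3 male libraries 1129 higher and 1237 lower, of which 26 by 2-fold or more in place of 135. Of the alternative values for the genes named, 4829 kept direction and call, 123 lost the call, 10 gained it and 9 turned sign. Genes that turned sign were not called, and the cause was not tested. With 1 library left out, genes and those list medians that exceeded the spread between libraries turned as follows: Abcc4 (0.0281), which ran from -0.0447 to 0.0895 and turned without WT 1 or KO 3, Hoxb9 (-0.00478), which ran from -0.0194 to 0.0139 and turned without WT 1 or WT 2 or KO 3, Jag1 (0.0113), which ran from -0.0103 to 0.0339 and turned without WT 1 or WT 2, Tpm1 (-0.00579), which ran from -0.0183 to 0.0148 and turned without WT 1 or KO 1, bile acid genes as a list median (-0.102), which ran from -0.173 to 0.00308 and turned without WT 2 and vacuolar ATPase as a list median (-0.0436), which ran from -0.0519 to 0.000309 and turned without WT 2. Medians smaller than that spread turned under 1 or more alternatives for NRF2 and antioxidant, Notch pathway, amino acid transporters, integrins, kinesins and respiratory complex I. The median of the laminins (-0.0533) was 0.0316 with the 5 CPM filter, which tests fewer members. Of genes not called, Eef2 was called by DESeq2 (adjusted p = 0.0431) and limma-voom (0.0308). Depth limits the low levels: 3 counts are 0.0971 to 0.167 CPM in the male libraries.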

Other observations

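Annexins and S100 proteins, which bind calcium and membranes, had 7 higher and 0 lower of 19, median 0.14, with 18 of the 19 estimates above 0. S100a6 was at 504, 469.9, 441 and 465 CPM in the WT libraries and 630.3, 665 and 629 CPM in the KO libraries (log2 fold change 0.45 ± 0.035, edgeR adjusted p = 3.56e-11), the groups being apart, and S100a10 rose from 138 ± 5.43 to 174 ± 4.82 CPM. Genes known from injured tubules had 11 higher and 4 lower of 22, median 0.20. Their summed share did not rise, at 2.36 ± 0.0783% of counts in WT and 2.36 ± 0.0199% in KO. Among these genes the adhesion molecule Vcam1 rose by 0.93 ± 0.062 on the log2 scale and the keratin Krt20 by 0.51 ± 0.047, while Vim, or vimentin, was lower (-0.19 ± 0.048). P53 targets had 7 higher and 1 lower of 21, median 0.060. The kinase Plk2 (0.30 ± 0.027) and the desmosome protein Perp (0.29 ± 0.036) were higher and Gadd45a lower (-0.31 ± 0.049), and the abundant Gdf15 was not called (0.040). In the caspase and BCL2 families, with 8 higher and 1 lower of 27, median 0.059, the pore-forming Bak1 was higher (0.26 ± 0.032), its protective relative Bcl2l2 lower (-0.24 ± 0.045) and Bax not called (0.040).

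Other groups held members in both directions. Targets of YAP and TEAD had 5 higher and 8 lower of 27, median -0.014 (3 higher without KO 2). In this group F3, the tissue factor that starts coagulation, was at 526, 536, 531 and 528 CPM in the WT libraries and 684, 704 and 721 CPM in the KO libraries (log2 fold change 0.41 ± 0.027, edgeR adjusted p = 8.18e-14), without overlap, and the ectonucleotidase Nt5e was lower (-0.47 ± 0.076). Kinesins had 9 higher and 5 lower of 35, median 0.012, the mitotic motor Kif18b rising (0.54 ± 0.069) and Kif26b (-0.74 ± 0.064) and Kif21b (-0.75 ± 0.075) falling. Hypoxia genes had 3 higher and 5 lower of 19, median -0.059 (2 lower without WT 2). The vascular growth factor Vegfa (-0.36 ± 0.040) and the collagen prolyl hydroxylase P4ha1 (-0.34 ± 0.036) were lower. Serine and one-carbon genes had 4 higher and 1 lower of 12, median 0.099 (median 0.044 without WT 3). The enzyme Phgdh, which starts serine synthesis, rose by 0.21 ± 0.032 and the cytosolic Mthfd1 by 0.21 ± 0.041, whereas the mitochondrial Aldh1l2 was at 66.1, 70.5, 77.02 and 69.8 CPM in the WT libraries and 43.1, 41.7 and 40.2 CPM in the KO libraries (log2 fold change -0.77 ± 0.049, edgeR adjusted p = 5.06e-14), without overlap. Circadian clock genes had 1 higher and 4 lower of 17, median -0.11, and imprinted genes 3 higher and 6 lower of 23, median -0.052 (median -0.15 without WT 1), with the transcription factor Plagl1 lower (-0.54 ± 0.089) and the adaptor Grb10 higher (0.14 ± 0.032).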
